A study of Mus musculus with 3 samples.

Results

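The 41 genes described here act in S phase, the part of the cell cycle in which the genome is copied. They were taken by symbol from a commonly used list of S phase genes, by a rule that uses no measured value. The members and the lists compared with them were chosen with earlier results of these data known. All 41 members are among the 31054 features of the deposited matrices. Their RNA was counted cell by cell in mouse forelimb buds taken at embryonic day 9.5, when the bud has just grown out. The control embryos were Esco2 fl/fl, so both copies of Esco2 were floxed but no recombinase was present. The mutant embryos were Esco2 fl/fl and also carried Prrx1-Cre Tg/0, a Cre recombinase driven by a Prrx1 enhancer that is active in limb bud mesenchyme. Ectoderm, endothelium and blood cells of the mutant buds therefore carry the floxed alleles in a lineage where this Cre is not known to be active. One control library and 2 mutant libraries were analysed here, called control 1, mutant 1 and mutant 2. Each library was a pool of limb buds from several embryos, male and female, whose cells had been frozen and thawed before capture. The labels do not say that libraries came from separate litters, so p-values speak only for these libraries. They rest on the spread left in each fit, part or all of which is shared among genes. Between mutant and control that spread comes from the 2 mutants alone, as there is 1 control.

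Copying of DNA is prepared in G1, when CDC6 and other loading factors place the MCM2-7 helicase on origins. In S phase CDC45 and the GINS complex turn the loaded helicase into an active one, primase and DNA polymerase alpha start each strand, and the sliding clamp PCNA holds the later polymerases on DNA. Ribonucleotide reductase and thymidylate synthase supply nucleotides, and histone chaperones rebuild chromatin behind the fork. ESCO2 works at the same forks: it acetylates the cohesin subunit SMC3 so that sister chromatids stay joined. Many genes of this group are transcribed at the G1 to S transition through E2F sites in their promoters. Cdkn1a encodes p21, a p53 target that inhibits cyclin-dependent kinases and also binds PCNA.

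The members were sorted by role into 8 genes of origin licensing and the helicase (Mcm2, Mcm4, Mcm5, Mcm6, Cdc6, Gmnn, Cdc45, Gins2), 8 of the polymerases, primase, clamp and clamp loaders (Pcna, Rfc2, Pola1, Prim1, Pold3, Rpa2, Fen1, Dscc1) and 3 of nucleotide supply (Rrm1, Rrm2, Tyms). A further 11 act on chromatin and histones (Uhrf1, Hells, Nasp, Slbp, Chaf1b, Cenpu, Atad2, Cdca7, Casp8ap2, Ubr7, Wdr76), 9 in fork protection, repair and the checkpoint (Ung, Rad51ap1, Exo1, Blm, Brip1, Clspn, Tipin, Usp1, Dtl) and 2 in cyclin and E2F control (Ccne2, E2f8).

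Promoter sequence was searched in windows of 250 bases before to 50 bases after each gene's start, from RefSeq on GRCm38.p6, where 31 of the 41 members had an entry. The E2F words searched on both strands were TTTCCCGC, TTTGGCGC, TTTGCCGC and TTTCGCGC. A gene with several windows was counted once if any of them held a word, and Uhrf1 held an E2F word in 1 window but not in another. Counted by gene, at least 1 such word was present in 12 of 31 members (38.7%) and 19 of 51 other replication genes (37.3%). It was present in 1 of 22 G2 and mitosis genes (4.55%) and in 704 of all 27025 genes (2.60%). The word CCAAT, searched in the same way, was present in 22 of 31 members (71.0%), 26 of 51 other replication genes (51.0%), 17 of 22 of the G2 and mitosis genes (77.3%) and 41.1% of all genes. The members with an E2F word were Casp8ap2, Cdc6, Cdca7, Clspn, Dtl, Hells, Mcm5, Mcm6, Pola1, Pold3, Ubr7 and Uhrf1. A match describes letters and is not a bound site. The 8 stretches of 160 bases printed here are a choice among members named in the text, so they do not show how common the words are. Mcm2 and Nasp, also followed closely, have no E2F word and are not printed. The printed stretches belong to 2 helicase subunits, the licensing factor Cdc6, Cdca7, Hells and Pola1, each with a word, and Pcna and Rrm2, which have none in this window. They are written 5′ to 3′ on the gene's strand, on GRCm38.p6, with matched words in capitals; in Mcm5 and Mcm6 neighbouring matches on opposite strands overlap and form a single run.
Mcm5 (chr8:75109349-75109508, plus strand): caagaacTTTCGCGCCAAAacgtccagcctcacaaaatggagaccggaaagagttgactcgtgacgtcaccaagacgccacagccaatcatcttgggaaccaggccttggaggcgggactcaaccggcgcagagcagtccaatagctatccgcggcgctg
Mcm6 (chr1:128359706-128359865, minus strand): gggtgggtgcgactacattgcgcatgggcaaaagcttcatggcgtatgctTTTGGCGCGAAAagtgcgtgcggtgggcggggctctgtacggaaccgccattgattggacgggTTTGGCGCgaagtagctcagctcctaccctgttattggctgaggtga
Cdc6 (chr11:98907991-98908150, plus strand): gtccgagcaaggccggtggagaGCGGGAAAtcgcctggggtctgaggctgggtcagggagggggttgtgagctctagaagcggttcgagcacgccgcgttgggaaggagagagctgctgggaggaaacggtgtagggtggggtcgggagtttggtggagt
Cdca7 (chr2:72476059-72476218, plus strand): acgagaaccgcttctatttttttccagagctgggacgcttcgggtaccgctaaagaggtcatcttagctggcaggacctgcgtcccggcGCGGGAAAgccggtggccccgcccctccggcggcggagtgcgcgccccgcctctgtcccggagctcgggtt
Hells (chr19:38930830-38930989, plus strand): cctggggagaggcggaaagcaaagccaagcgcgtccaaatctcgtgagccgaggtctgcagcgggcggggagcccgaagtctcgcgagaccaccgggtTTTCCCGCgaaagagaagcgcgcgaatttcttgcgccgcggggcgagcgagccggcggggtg
Pola1 (chrX:93632156-93632315, minus strand): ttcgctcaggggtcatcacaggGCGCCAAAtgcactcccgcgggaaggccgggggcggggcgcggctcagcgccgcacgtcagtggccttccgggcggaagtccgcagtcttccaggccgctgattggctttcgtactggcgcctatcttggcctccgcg
Pcna (chr2:132253181-132253340, minus strand): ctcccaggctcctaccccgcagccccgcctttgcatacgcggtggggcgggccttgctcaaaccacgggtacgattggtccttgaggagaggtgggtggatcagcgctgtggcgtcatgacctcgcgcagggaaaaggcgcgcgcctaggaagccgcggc
Rrm2 (chr12:24708094-24708253, plus strand): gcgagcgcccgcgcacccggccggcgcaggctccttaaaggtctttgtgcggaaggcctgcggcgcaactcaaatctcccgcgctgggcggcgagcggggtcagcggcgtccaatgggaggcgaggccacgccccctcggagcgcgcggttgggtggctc

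Between 178159788 and 225032823 unique molecular identifiers (UMIs, counts of captured RNA molecules) were deposited per library, over 6527 barcodes in control 1, 7219 in mutant 1 and 8755 in mutant 2. After removal of barcodes with few genes, many mitochondrial UMIs or a doublet call, 4048, 3590 and 4684 cells remained, and the libraries shared 18 or 19 barcodes in pairs. Cells were assigned to classes from marker genes, none of which is a member, after each cell had been thinned to 10000 UMIs. That left out 1683, 782 and 829 shallower cells. Limb mesenchyme held 645 cells in control 1, 899 in mutant 1 and 1727 in mutant 2, with median depths of 46250, 38875 and 55137 UMIs. Ectoderm (291 to 374 cells), endothelium (381 to 482), erythroid cells (397 to 599) and flank mesoderm (211 to 261) had enough cells in every library for a test, and myogenic cells and macrophages did not. In the mesenchyme class the 12 mesenchyme markers summed to 2604 to 3092 CPM (UMIs per 1000000 UMIs of the class), the endothelial markers to 30 to 34 CPM and the ectodermal markers to 48 to 69 CPM. The ectoderm class also held 1244 to 1549 CPM of mesenchyme markers, beside 2190 to 3182 CPM of its own, and the part of this in the ectoderm values was not tested. The flank class held 2502 to 3158 CPM of mesenchyme markers, a level near that of the mesenchyme class, beside 545 to 629 CPM of flank markers and 359 to 382 CPM of coelomic epithelium markers. Erythroid marker RNA stood at 484 to 556 CPM in mesenchyme, and its part in the values was not tested.

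The labels were checked on the mutant alleles and on p53 target RNA. Esco2 stood at 32.7 scaled CPM (CPM after scaling factors from edgeR) in control mesenchyme, 22.9 in mutant 1 and 22.1 in mutant 2, a log2 difference of −0.54 (SE 0.27, edgeR adjusted p = 1.0). A 3′ tag need not fall in the deleted part, so this RNA neither shows nor denies the deletion. Cdkn1a rose in mutant mesenchyme from 0.9 to 59.95 and 62.9 scaled CPM, a log2 change of 6.02 (SE 0.44, edgeR adjusted p = 2.83e-39). With the prior of the ectoderm fit in place of its own, the same comparison called 0 genes by edgeR.

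All 41 members were detected in every library and class. In mesenchyme thinned to 10000 UMIs, the rarest member was E2f8, an E2F family repressor, detected in 13.8%, 13.3% and 13.9% of cells in the order control 1, mutant 1, mutant 2. Nasp, a chaperone of linker and core histones, was found in 99.8%, 99.6% and 99.9%. The median member was found in 53.6%, 53.1% and 59.1% of cells. Nasp, Rrm2, Pola1, Hells and Atad2 had the most UMIs, so the summed level of the members gives these 5 genes the greatest weight.

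The summed share of the members was highest in limb mesenchyme and lowest in erythroid cells, in each of the 3 libraries. In mesenchyme it was 5014 CPM of all UMIs in control 1, 4853 in mutant 1 and 5093 in mutant 2. The control thus lay between the 2 mutants. In ectoderm the shares were 4277, 3910 and 3902 CPM, in endothelium 3703, 3709 and 3622 CPM, and in flank mesoderm 4119, 4431 and 4351 CPM. Myogenic cells (4031, 4293 and 4804 CPM) and macrophages (4174, 4640 and 4247 CPM), which rest on few cells, lay between endothelium and mesenchyme. In erythroid cells the shares were 2429, 2157 and 2072 CPM. There, the erythroid markers alone took 36.2%, 39.5% and 41.7% of UMIs, and with these set aside the member shares were 3808, 3565 and 3557 CPM.

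**Figure D1:**
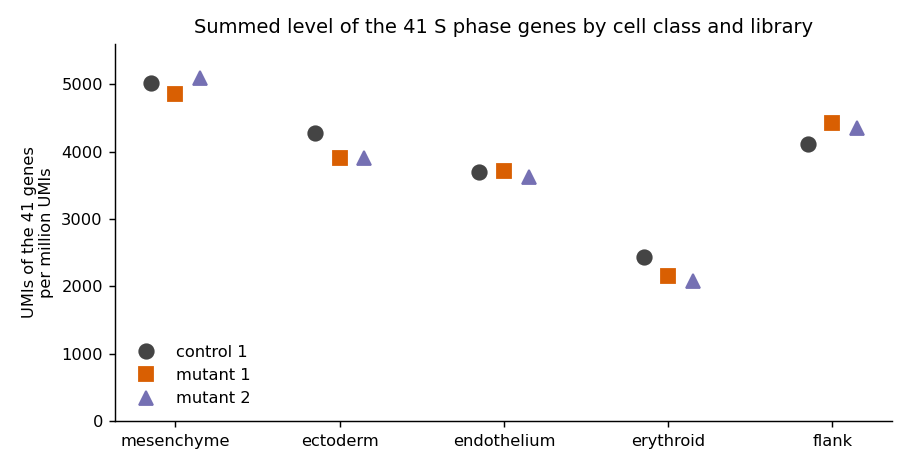
Summed UMIs of the 41 members in CPM of all UMIs (vertical axis, from 0) for the 5 classes with enough cells (horizontal axis), with 1 point per library. Mesenchyme lies at 4853 to 5093 CPM in all 3 libraries, above every other class drawn, and control 1 lies between the mutants there.

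The classes were compared gene by gene with the library as a block (edgeR quasi-likelihood test, Benjamini-Hochberg adjustment over 10573 genes). In ectoderm 28 of 41 members were lower than in mesenchyme and 1 was higher, where 31.5% of all genes tested were lower and 29% higher (60.5% in all). The median member difference was −0.32 on the log2 scale, against −0.02 over all genes. Rrm2, the cell cycle-regulated small subunit of ribonucleotide reductase, had 245, 192 and 248.6 scaled CPM in mesenchyme of control 1, mutant 1 and mutant 2 and 128, 95.5 and 89.8 in ectoderm. All 3 ectoderm values lay below all 3 mesenchyme values, with a log2 difference of −1.13 (SE 0.12, edgeR adjusted p = 9.3e-06). Gins2, a GINS subunit of the active helicase, was lower by the same test, with 64.8, 50.6 and 58.0 scaled CPM in mesenchyme and 31.1, 30.3 and 33.2 in ectoderm (log2 difference −0.87).

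The lower ectoderm values covered most roles. Among helicase subunits Mcm2 (log2 difference −0.62), Mcm5 (−0.58) and Mcm6 (−0.50) were lower, and Mcm4 stood at −0.20 with edgeR adjusted p = 0.085. Pcna was lower by 0.76 and Rrm1, the large ribonucleotide reductase subunit, by 0.66 on the log2 scale. The fork protection genes Clspn (−0.57) and Tipin (−0.62) and the histone chaperone Nasp (−0.55) were lower too. Wdr76, which encodes a chromatin-associated WD repeat protein, was the member that was higher (0.34). Between 18 and 25 members passed the test when 1 library was left out, with 18 without mutant 2 (43.9%, where 44.5% of all genes passed). Without scaling factors, which moved the median of all genes to 0.08, 19 members were lower and 3 higher (24.5% and 33.3% of all genes), with a member median of −0.22.

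In endothelium 14 members were lower than in mesenchyme and 4 higher, against 32.3% and 33.2% of all genes (65.5% in either direction), with a median member difference of −0.03, which stood at 0.00 with genes kept down to 1 CPM. Without scaling factors, where the median of all genes was −0.16, 21 were lower and 1 higher (42.7% and 24.7% of all genes), with a member median of −0.20. Nasp stood at 862, 811 and 926 scaled CPM in mesenchyme and at 462, 454 and 444 in endothelium (log2 difference −0.93), and Pola1, the catalytic subunit of polymerase alpha, at 199, 187 and 158 against 103, 101 and 99.7 (−0.84). Neither gene overlapped between the classes. Dtl (−0.58), an adaptor of the ubiquitin ligase that acts on PCNA-bound proteins, the helicase gene Blm (−0.55) and the centromere gene Cenpu (−0.55) were also lower, and Ubr7 (0.45) and Rad51ap1 (0.30) were higher. In flank mesoderm 17 members were lower and 3 higher (17.7% and 21.4% of all genes, 39% in either direction), with a median of −0.18. The part of the shared mesenchyme markers of this class in these values was not tested. Rrm2 (−0.68), the histone chaperone gene Chaf1b (−0.53), Pola1 (−0.49), Cdc45 (−0.42) and Mcm2 (−0.38) were lower there, and E2f8 (0.85) was higher. The number of members passing in flank was 8 without mutant 2 and 6 without control 1, so this count rests on those libraries.

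The direction in erythroid cells turned with the scaling. With TMM factors 23 members were higher and 8 lower than in mesenchyme (39.5% and 42.1% of all genes, 81.6% in either direction), with a median of 0.43. Without scaling factors 0 members were higher and 37 lower by the same edgeR test, where 84.1% of all genes were lower, with a member median of −0.87 and a median of −1.34 over all genes. Prim1, a primase subunit (1.38), Fen1, the flap endonuclease (1.31), and Mcm6 (1.14) led the members that were higher with TMM factors, and Mcm6 stood at −0.16 without them. The chromatin remodeller Hells (−1.68), Cdca7 (−1.27), which recruits it, and Nasp (−1.03) were low with TMM factors and lower still without them.

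In limb mesenchyme, where Prrx1-Cre acts, no member passed the test between mutant and control. The edgeR quasi-likelihood test called 75 genes higher and 45 lower in the mutants out of 10104 (1.19% in all, 0.742% higher and 0.445% lower) and 0 of the 41 members, of which 0 had an unadjusted p under 0.05. DESeq2 called 0 members as well. The median member difference was −0.07, against −0.01 over all genes, with 13 members above 0 and 28 below. With each cell thinned to 10000 UMIs the member median was −0.13, with 7 members above 0. Of 59 other replication genes, which include Mcm3, Mcm7 and the ORC subunits, 0 were called and 0 had an unadjusted p under 0.05, with a median of −0.05, and the same counts held for 25 G2 and mitosis genes, with a median of 0.07.

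The 2 mutant libraries lay on either side of the control for many members. Against control 1 the median member stood at −0.17 in mutant 1, where 9 members lay above 0, and at 0.03 in mutant 2, where 24 did. Of the members, 6 lay above the control in both mutants and 14 below it in both, and these counts were not made over all genes. With 1 control library no exact permutation over libraries can go below p = 0.33.

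Among the helicase genes, Mcm2 stood at 88.5 scaled CPM in control 1, 75.9 in mutant 1 and 97.8 in mutant 2 (log2 difference −0.03, SE 0.35). Mcm5 stood at 126.7, 98.1 and 129.8 (−0.15, SE 0.36) and Mcm6 at 135.0, 109.3 and 138.0 (−0.13, SE 0.37). In these 3 genes the control lay between the mutants. Mcm4 had 90.9, 94.7 and 112.5, above the control in both mutants, with the highest difference of any member (0.19, SE 0.36). Gins2 had 78.0, 61.5 and 69.8, below the control in both (−0.25, SE 0.33). The adjusted p of each of these 5 genes was 1.0 by edgeR.

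Each of the 8 polymerase, primase and clamp genes had a fitted difference below 0, with a median of −0.16 and a range from −0.67 for Pcna to −0.01 for Fen1. Pcna, which encodes the sliding clamp, had 145.4 scaled CPM in control 1, 81.4 in mutant 1 and 100.8 in mutant 2. Both mutants lay below the control, and the log2 difference of −0.67 (SE 0.35) had an edgeR unadjusted p of 0.055 and an adjusted p of 1.0. Dscc1, a subunit of an alternative clamp loader, had 24.2, 18.9 and 22.9 (−0.20, SE 0.27).

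Of the nucleotide supply genes, Rrm2 had 295.0, 233.7 and 299.6 scaled CPM, with mutant 2 above the control and mutant 1 below it. Of the chromatin genes 5 lay above 0 and 6 below, from −0.19 for Cenpu (28.5, 23.5 and 26.4) to 0.11 for Ubr7. Nasp had 1037, 986 and 1116 and Hells 227, 218 and 231, both with the control between the mutants. In fork protection and repair, 5 genes lay above 0 and 4 below. Ung, the uracil DNA glycosylase, had the lowest value of these (44.5, 34.1 and 38.8; log2 difference −0.29, SE 0.29). Ccne2, which encodes cyclin E2, had 37.9, 33.1 and 27.3 (−0.33, SE 0.28), and E2f8 had 17.0, 15.8 and 15.8.

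**Figure D2:**
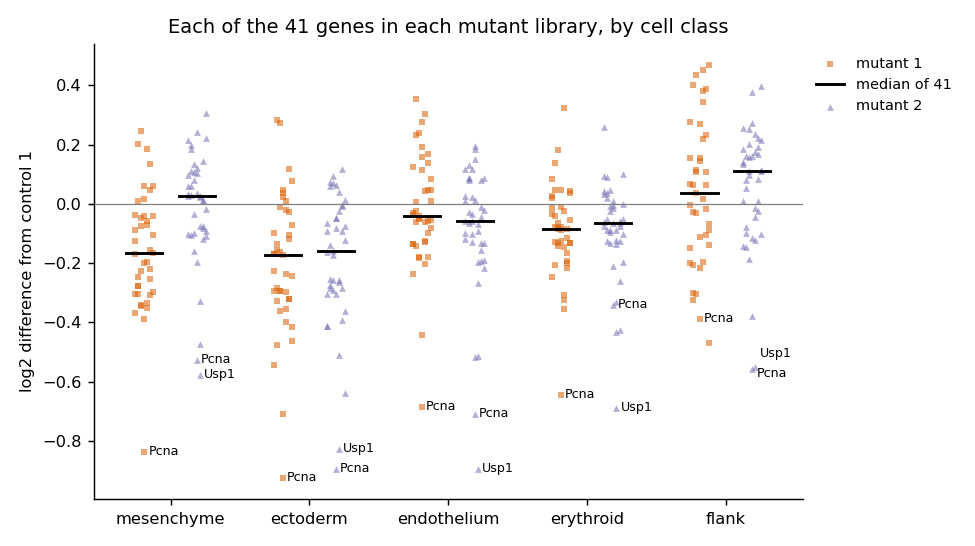
Log2 difference (vertical axis) of each mutant library from control 1 in 5 cell classes (horizontal axis), with 1 point per member and library and a line at the median of the 41. The mesenchyme medians are −0.17 in mutant 1 and 0.03 in mutant 2, and Pcna lies at −0.34 or lower in both mutants in every class.

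Pcna (chromosome 2, 132249162 to 132253314, minus strand, GRCm38) was lower in both mutants than in the control in all 5 classes tested, among them classes in which Prrx1-Cre is not known to act. Ectoderm had 101.1 scaled CPM in control 1, 53.2 in mutant 1 and 54.3 in mutant 2. Endothelium had 101.8, 63.3 and 62.3, erythroid cells 81.9, 52.4 and 64.6, and flank mesoderm 99.1, 75.6 and 67.3. The mutant libraries did not overlap the control in any class, where the same control library enters each time. How many of all genes lie on 1 side of the control in this way was not counted. Ung, Tipin and Dscc1 were the other members with every mutant value below the control in all 5 classes, and their values nearest to 0 were −0.08, −0.05 and −0.05 on the log2 scale, against −0.34 for Pcna. The log2 differences were −0.91 (SE 0.14) for ectoderm, −0.70 (SE 0.10) for endothelium, −0.49 (SE 0.17) for erythroid cells and −0.47 (SE 0.21) for flank, with edgeR adjusted p of 0.83, 0.69, 1.0 and 1.0. The call depended on how the spread was shared among genes. With 1 spread shared by all genes in each class, chosen after seeing the data, the edgeR adjusted p was 3.18e-06 for ectoderm, 7.06e-07 for endothelium and 0.000275 for erythroid cells, and DESeq2 gave 0.0236 in endothelium. In flank edgeR called 0 members with such a shared spread. The mesenchyme fit already shared 1 spread over all genes and did not call Pcna. The difference between mesenchyme and the mean of ectoderm, endothelium and erythroid cells was −0.01 (SE 0.17, edgeR adjusted p = 1.0). With a single control library, genotype and library cannot be told apart for a gene that is low in every class.

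Usp1, the deubiquitinase that acts on PCNA and FANCD2, was named after its values were seen, because it followed one library. In mutant 2 it stood at 74.9 scaled CPM in mesenchyme, 61.2 in ectoderm, 53.3 in endothelium, 50.7 in blood cells and 74.4 in flank. Control 1 had 112.0, 108.6, 99.3, 81.7 and 109.0 and mutant 1 had 127.3, 109.3, 122.5, 102.2 and 138.3 in the same order. Mutant 1 thus lay above the control and mutant 2 below it in all 5 classes. Of the 60-base words in its 3′ ends, 12.6% also occur in another gene, Gm5841, against 0% for Pcna, and reads from such words cannot be assigned to 1 gene.

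**Figure D3:**
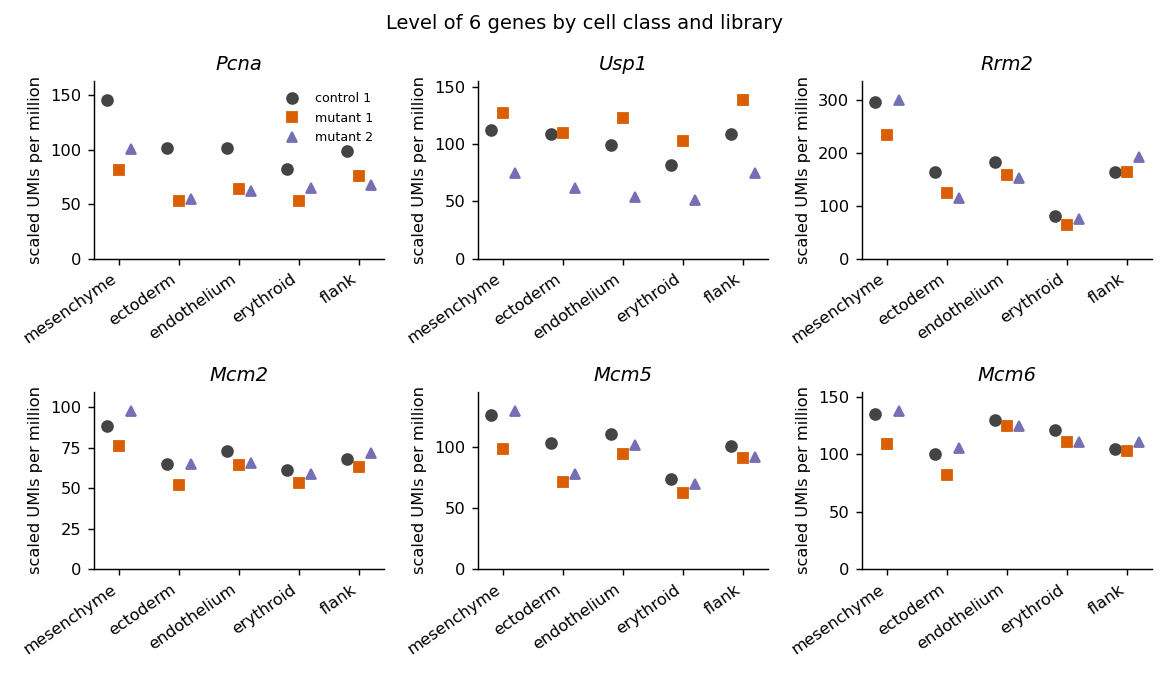
Scaled CPM (vertical axis, from 0) of Pcna, Usp1, Rrm2, Mcm2, Mcm5 and Mcm6 in each library (points), by cell class; levels are scaled within a class. Pcna is at 81.4 and 100.8 in mutant mesenchyme against 145.4 in the control, and Usp1 is low in mutant 2 in all 5 classes.

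In the other classes edgeR called 0 genes of any kind (0%). At an unadjusted p under 0.05 stood 503 ectoderm genes, 668 endothelium genes, 168 erythroid genes and 285 flank genes. Of the members, 3, 2, 1 and 0 had such an unadjusted p. DESeq2 called 1 member, Pcna, in endothelium. The member medians of ectoderm, endothelium, erythroid cells and flank were −0.18, −0.06, −0.08 and 0.06, where all genes had 0.02, 0.01, −0.01 and 0.00. In ectoderm 30 of 41 members lay below the control in both mutants and 5 above it in both. In endothelium these numbers were 20 and 11, in erythroid cells 27 and 6, and in flank 10 and 18. The share of all genes on 1 side of the control in both mutants was not computed, so these counts are description only. In the flank class p53 target RNA was also higher in the mutants, with 12 of 13 targets tested above 0 and Cdkn1a at 1.72, none of them called by edgeR and 5 with an unadjusted p under 0.05.

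Beside Pcna, the members with the lowest p in ectoderm were Rrm2 (log2 difference −0.45), Mcm5 (−0.48, SE 0.15), E2f8 (−0.55), Tipin (−0.39) and Cdca7 (−0.35). In endothelium they were Ung (−0.48), Rrm2 (−0.23), Casp8ap2 (0.23), Gmnn (0.17), which encodes the licensing inhibitor geminin, and Hells (−0.16). In erythroid cells they were Hells (−0.39), Slbp (−0.23), which encodes the histone stem-loop binding protein, Mcm4 (−0.16), Pold3 (−0.16) and Mcm6 (−0.13). In flank they were Cdc6 (0.44), Brip1 (0.33), Blm (0.29), Pola1 (0.28) and Rrm1 (0.27). None of these passed the adjusted threshold by edgeR.

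The mutant effect in mesenchyme was compared directly with the mean of that in ectoderm, endothelium and erythroid cells. Of 10452 genes 2 were called higher and 0 lower (0.0191% in all, with 579 at an unadjusted p under 0.05), and 0 members were called by edgeR, 0 of them with an unadjusted p under 0.05. The member median was −0.01 and that of all genes −0.04, with 19 members above 0. The direction turned with the setting: against ectoderm alone the member median was 0.15 with 33 members above 0, and it was 0.01 with RLE factors and 0.02 with the stricter cell filter. The members with the lowest p were Mcm4 (0.27, SE 0.16), Gins2 (−0.22, SE 0.13), Prim1 (−0.18), Hells (0.19), Uhrf1 (0.16) and Pola1 (−0.17). Mcm2 stood at 0.09, Mcm5 at 0.08 and Mcm6 at −0.06.

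Mutant mesenchyme was next divided by whether a cell thinned to 10000 UMIs held a Cdkn1a UMI. Such cells made up 0.620% of control mesenchyme (4 of 645, exact 95% interval 0.169 to 1.58), 12.7% of mutant 1 (114 of 899, 10.6 to 15.0) and 12.2% of mutant 2 (210 of 1727, 10.7 to 13.8). Erythroid cells, as a class with little Cdkn1a, had 2.77%, 1.67% and 2.03% at the same depth. Without thinning the mesenchyme shares were 2.02%, 17.0% and 18.0%. Intervals cover counting error only, and a cell without a Cdkn1a UMI can still express the gene. The 4 control cells were too few for a group, so the split was tested within the 2 mutants with the library as a block.

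In cells with a Cdkn1a UMI 1 member, Rrm2, rose and 0 fell. Of all 10394 genes 858 rose and 362 fell (8.25% and 3.48%, 11.7% in all), and the members' count of 1 in 41 is read against that share. The member median was 0.08 against −0.02 over all genes, with 28 members above 0, and 20 lay above 0 in both mutants and 6 below 0 in both. The counts by library were not made over all genes. With the stricter gate the member median was −0.02, as over all genes, with 18 members above 0, so the direction of the median turned. The member median was 0.20 in mutant 1 and 0.02 in mutant 2. In mutant 1 Rrm2 (chromosome 12, 24708241 to 24714146, plus strand, GRCm38) stood at 177.98 scaled CPM in cells without a Cdkn1a UMI and 289 in cells with one. In mutant 2 it stood at 279 and 384. The log2 change was 0.57 (SE 0.13, edgeR adjusted p = 0.00012, DESeq2 adjusted p = 0.00317). Without the library block the edgeR adjusted p was 0.758 at a log2 difference of 0.56, and 11.3% of its 3′ words also occur in 2 other genes.

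Other members had values that did not pass. Ccne2 stood at 33.5 without and 46.3 with a Cdkn1a UMI in mutant 1 and at 29.8 and 38.5 in mutant 2 (log2 difference 0.41, SE 0.17, edgeR adjusted p = 0.11). Mcm5 stood at 82.0 and 109.3 in mutant 1 and at 121 and 139.8 in mutant 2 (0.29, SE 0.12, adjusted p = 0.12). Both genes were higher in both libraries. Of the other helicase subunits Mcm2 stood at 65.1 and 81.3 in mutant 1 and 95.9 and 101.8 in mutant 2, Mcm6 at 94.6 and 114.5 and at 127 and 134.7, and Mcm4 at 78.3 and 90.9 and at 104.9 and 114 (log2 differences 0.18, 0.16 and 0.16). Pcna stood at 77.3 and 85.7 in mutant 1 and at 101.2 and 102.8 in mutant 2 (0.07). Cdca7 was the lowest by p among those below 0, at 103.6 and 96.1 in mutant 1 and 151 and 117.5 in mutant 2 (−0.26, adjusted p = 0.20). With cells thinned to 20000 UMIs 5 members rose (Rrm2, Ccne2 at 0.50, Pola1 at 0.30, Ung at 0.35 and Brip1 at 0.33), which is 12.2% of the members where 12.2% of all genes rose. With 2 or more Cdkn1a UMIs required 3 rose (Rrm2 at 0.75, Ccne2 at 0.55 and Mcm5 at 0.44), or 7.32% of the members where 8.55% of all genes rose.

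**Figure D4:**
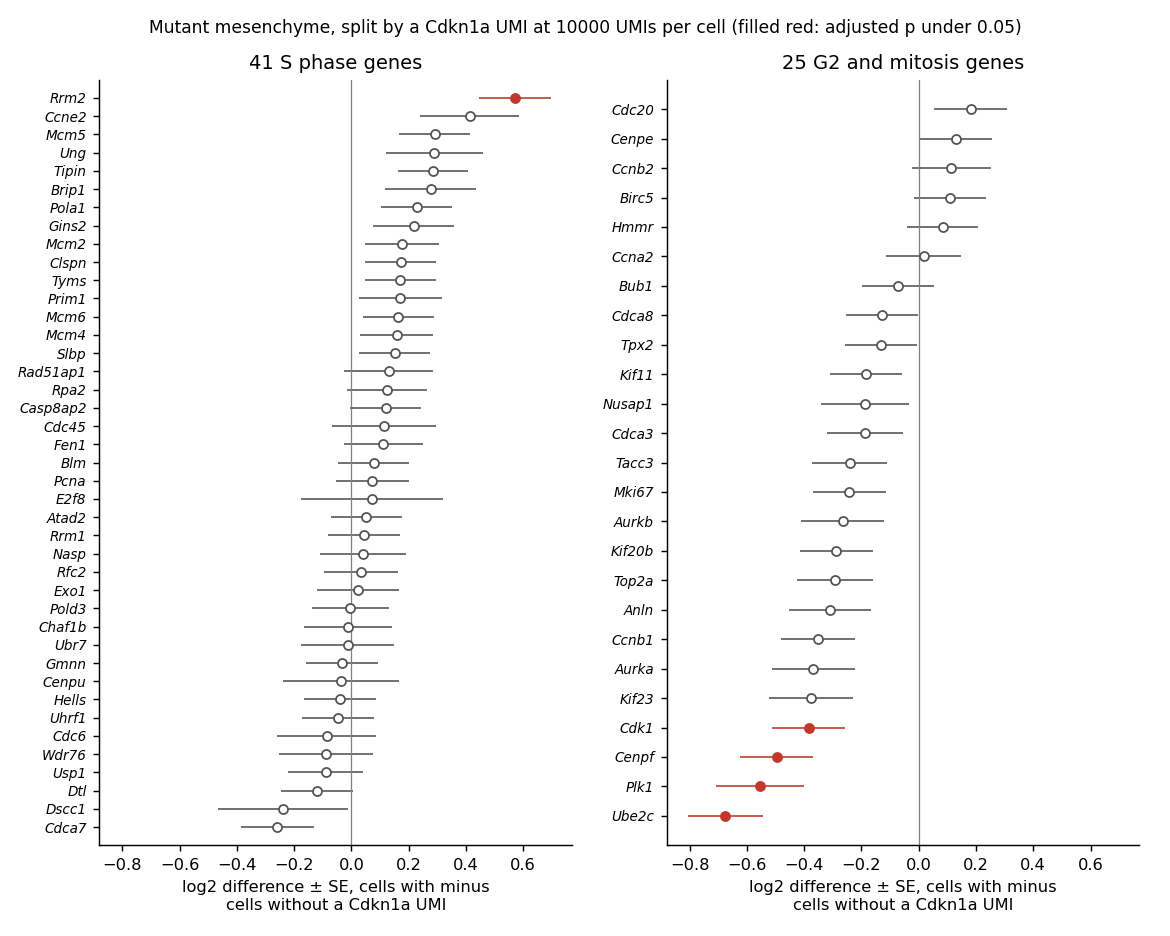
Log2 difference (horizontal axis, point with SE) between mutant mesenchyme cells with and without a Cdkn1a UMI, fitted over both mutants, for the 41 members and for 25 G2 and mitosis genes, ordered by value. Rrm2 at 0.57 is the member past the threshold, and Ube2c, Plk1, Cenpf and Cdk1 are past it at −0.67, −0.55, −0.50 and −0.38.

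Of the 59 other replication genes, 2 rose in cells with a Cdkn1a UMI and 1 fell, with a median of 0.00. Dck, which encodes deoxycytidine kinase of the nucleotide salvage pathway (log2 change 0.58, SE 0.16, edgeR adjusted p = 0.0047), and E2f7, a repressor of E2F targets (0.56, SE 0.16, adjusted p = 0.00533), rose. Dbf4, the activator of the CDC7 kinase that fires origins, fell (−0.46, SE 0.13, adjusted p = 0.00528). Of 25 genes of G2 and mitosis 4 fell and 0 rose, with a median of −0.24. Ube2c, a ubiquitin-conjugating enzyme of mitotic exit (−0.67, edgeR adjusted p = 6.19e-06), Cenpf (−0.50, 0.00184), the mitotic kinase gene Plk1 (−0.55, 0.00452) and Cdk1 (−0.38, 0.0267) fell. By DESeq2, Ube2c (adjusted p = 0.00954) and Cenpf (0.0246) kept their call, and Plk1, Cdk1, Dck, E2f7 and Dbf4 did not. At 5000 UMIs per cell edgeR called only Ube2c of these 7 genes (adjusted p = 0.00234). Cenpf had an adjusted p of 0.140 there, Cdk1 0.136, Plk1 0.378, Dbf4 0.0515, Dck 0.0637 and E2f7 0.0792. Plk1 (0.128) and E2f7 (0.104) lost the edgeR call with the stricter gate, and Cdk1 (0.246) with 2 or more Cdkn1a UMIs. With the prior of the ectoderm split, Cdk1 (0.134) and E2f7 (0.0556) lost it. All 7 kept the call at 20000 UMIs. Without the library block edgeR called none of these 7 genes, with adjusted p from 0.544 for Ube2c to 0.986 for Cdk1. Esco2 itself rose in cells with a Cdkn1a UMI, from 21.4 to 42.0 scaled CPM in mutant 1 and from 21.7 to 43.1 in mutant 2 (0.98, SE 0.18, edgeR adjusted p = 1.68e-06, and 0.0648 without the block). The 15 p53 target genes of the check list, Cdkn1a among them, all rose, and the split itself reads Cdkn1a. Without the block, Bax was not called (adjusted p = 0.21).

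Ectoderm holds Cdkn1a in every library, with 29.2%, 26.2% and 24.0% of cells with a UMI at 10000 UMIs, so the same split was made there over 3 libraries. Of 10742 genes 1.11% were called (0.391% higher and 0.717% lower), and 0 of the 41 members by edgeR, 7 of them with an unadjusted p under 0.05. The member median was 0.13 with 30 members above 0, and 0.15, 0.11 and 0.09 in control 1, mutant 1 and mutant 2. It was 0.0054 with 22 members above 0 at 5000 UMIs, 0.07 at 20000 UMIs and 0.06 without control 1. Cdca7 had 122.9, 110.4 and 107.6 scaled CPM in cells without a Cdkn1a UMI and 157, 153.5 and 155.8 in cells with one. Every library was higher with the UMI (log2 difference 0.45, SE 0.12, edgeR adjusted p = 0.09). Nasp (0.26), Ccne2 (0.55), Fen1 (0.39), Gins2 (0.42) and Ubr7 (0.40) were the next by p. Without mutant 2, 3 members were called (7.32%, where 7.47% of all genes were), with Nasp (0.26) and Cdca7 (0.41) higher and Pola1 (−0.38) lower. G2 and mitosis genes had 0 of 25 called by edgeR there, with a median of −0.08.

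The difference between the split in mesenchyme and that in ectoderm was tested in the 2 mutants. Of 10862 genes 3.56% were called (3.22% higher and 0.341% lower), and 1 of 41 members, Cdca7 (chromosome 2, 72476159 to 72486893, plus strand, GRCm38), which encodes a partner of the remodeller HELLS. In mutant 1 it stood at 108.4 without and 98.5 with a Cdkn1a UMI in mesenchyme and at 107.7 and 150.1 in ectoderm. In mutant 2 it stood at 156.7 and 120 in mesenchyme and at 105.2 and 152.2 in ectoderm. It was lower with the UMI in mesenchyme and higher in ectoderm in both libraries, a log2 difference of −0.78 (SE 0.21, edgeR adjusted p = 0.0338). The call was lost at 5000 UMIs (−0.42, adjusted p = 0.676) and at 20000 UMIs (−0.65, adjusted p = 0.0566). The member median was 0.02, and −0.02 at 5000 UMIs.

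Mesenchyme cells without a Cdkn1a UMI were compared between mutant and control at the same depth. Of 10160 genes 2 were higher and 6 lower (0.0197% and 0.0591%, 0.0787% in all), and 0 of 41 members were called by edgeR, 0 with an unadjusted p under 0.05. The member median was −0.14 over both mutants and −0.06 at 20000 UMIs. By library it was −0.27 for mutant 1 and −0.02 for mutant 2. Pcna had 153 scaled CPM in control 1, 75.6 in mutant 1 and 102.3 in mutant 2 (log2 difference −0.78, SE 0.44). The next by p were Ung (−0.46), Gins2 (−0.45), Tipin (−0.41), Rpa2 (−0.35), a subunit of the single-strand DNA binding complex, and Cdc45 (−0.32). Mcm5 stood at −0.27, Mcm6 at −0.26, Mcm2 at −0.14 and Mcm4 at 0.10.

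Per cell, the members' summed UMIs at 10000 UMIs per cell spread widely within each library. In mesenchyme the mean was 50.0 in control 1, 46.7 in mutant 1 and 50.7 in mutant 2, with SDs over cells of 15.9, 15.5 and 14.9 and ranges of 10 to 109, 12 to 109 and 13 to 104. The variance over the mean was 5.03, 5.14 and 4.39. The share of cells above 61 UMIs, the upper quartile of control 1, was 24.2% in control 1 (exact 95% interval 20.9 to 27.7), 18.8% in mutant 1 (16.3 to 21.5) and 23.2% in mutant 2 (21.2 to 25.3). Mutant 1 was low and mutant 2 was near the control. The means were 41.6, 39.1 and 39.2 in ectoderm, 37.4, 36.9 and 36.2 in endothelium, 42.2, 43.1 and 42.3 in flank and 25.6, 23.0 and 22.5 in erythroid cells. A total over chosen members got no test.

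The S phase and the G2 and mitosis totals were then compared between cells with and without a Cdkn1a UMI. In mutant 1 the S phase mean was 49.5 UMIs in cells with the UMI and 46.3 in cells without it, and in mutant 2 it was 50.9 and 50.6. With the stricter gate mutant 2 had 48.7 and 50.7, so the order in that library turned, as it did at 5000 UMIs (24.5 and 25.3). The share above 61 UMIs was 21.9% (14.7 to 30.7) and 18.3% (15.7 to 21.2) in mutant 1 and 25.2% (19.5 to 31.7) and 22.9% (20.9 to 25.1) in mutant 2, so the intervals overlapped. Over the 25 G2 and mitosis genes the mean was 30.5 with and 36.3 without in mutant 1, and 33.1 and 40.1 in mutant 2, where control 1 had 35.1. The share above 47 UMIs of these genes, the upper quartile of control 1, was 14.04% (8.24 to 21.8) with and 26.1% (23.1 to 29.3) without in mutant 1. In mutant 2 it was 17.1% (12.3 to 22.9) and 33.8% (31.4 to 36.3), and control 1 had 23.9%. The intervals did not overlap in either mutant, but they cover counting error over the cells of 1 library only. No test was run on these shares.

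**Figure D5:**
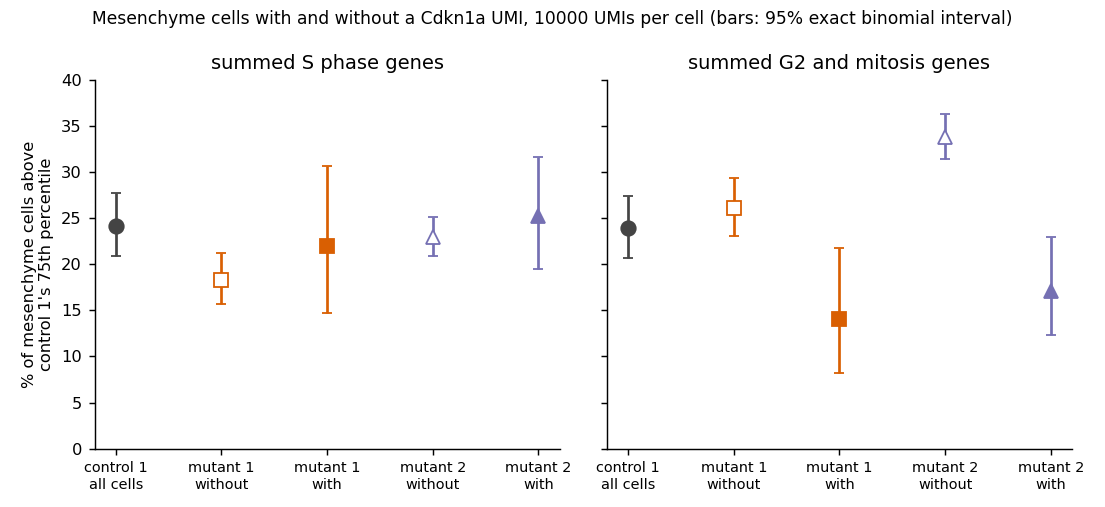
Percent of mesenchyme cells above the upper quartile of control 1 for the summed S phase members and for the G2 and mitosis genes, for control 1 and for mutant cells with and without a Cdkn1a UMI, with exact 95% intervals as bars. S phase shares of cells with the UMI are 21.9% and 25.2%, and G2 and mitosis shares are 14.04% and 17.1%.

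The members did not all follow the same cells. Mesenchyme cells of each library were ranked by the summed UMIs of the other 40 members, and each member's level in the top 25% was divided by that in the bottom 25%, as a description. Cdc6, the licensing loader, and Ung led. Cdc6 had ratios of 7.69 in control 1, 7.497 in mutant 1 and 5.40 in mutant 2, and Ung had 12.8, 6.56 and 6.23. Ung was thus above Cdc6 in 2 of the 3 libraries and below it in mutant 1. Both ratios divide by a level near the floor. In the bottom cells of control 1, Ung stood at 7.19 CPM over 167 cells and Cdc6 at 10.3 CPM over 165 cells. The medians of Ccne2 (5.07), Chaf1b (3.24) and Cdc45 (3.23) followed. The lowest were Cenpu (1.28), Pola1 (0.99) and Blm (0.90). Because members share cells and depth, these ratios are no test of a common control.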

How the data were processed

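The count matrices of 1 control and 2 mutant libraries were analysed. Their whole-number UMI counts per gene and barcode were deposited unnormalized; they were made with Cell Ranger 7.0.0, per the file headers, and the submitters' processing notes name the build mm10 and Seurat 4.0.0 without giving their roles. Here barcodes with at least 500 genes and under 10% mitochondrial UMIs were kept and doublets called by Scrublet (scanpy 1.11.5, expected rate 0.06) were removed. Each cell was thinned to 10000 UMIs and gated: erythroid markers at 10% of UMIs or more, at least 4 ectoderm, 5 endothelium, 3 myogenic or 4 macrophage markers, at least 2 flank markers, or for mesenchyme at least 5 of 12 markers with 2 of 4 limb field markers (Prrx1, Tbx5, Lhx2 and Lhx9) whose UMIs outnumbered those of the flank list. The thresholds were set after seeing the data, and cells of more than 1 class were left out. UMIs were summed per library and class (thinned UMIs in the Cdkn1a splits) and tested with edgeR 4.0.16 (R 4.3.3; quasi-likelihood test, TMM factors, genes at a mean of 5 CPM or more, Benjamini-Hochberg adjustment over all genes tested, threshold 0.05). DESeq2 1.42.0 was an alternative. Scaled CPM are UMIs per 1000000 after TMM scaling within the fit named, so they differ between fits. The mesenchyme fit drew on a single spread over all genes (an infinite prior), and the ectoderm fit on a prior of 2.57 degrees of freedom. The code was tested on simulated data. Named genes were, per comparison, the members past the threshold, at most 10 by p, or else the 6 of lowest p, the 4 MCM subunits and Pcna, with Cdkn1a and Esco2 as checks. Members and lists were chosen with earlier results of these data known. The alternatives tried were RLE size factors, other CPM minimums, a stricter cell filter and gate, depths of 5000 and 20000 UMIs, 2 or more Cdkn1a UMIs, no replicate block, other priors, no scaling factors and leaving out each library.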

Additional observations from a re-analysis of the deposited data

Results flagged for a closer look

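Cdca7 stood out by the test of the difference between cell classes: its log2 difference between mutant cells with and without a Cdkn1a UMI was lower in mesenchyme than in ectoderm by −0.78 (SE 0.21, edgeR adjusted p = 0.0338), with the level in cells with the UMI below that in cells without it in mesenchyme and above it in ectoderm in both mutant libraries. The adjusted p was 0.676 at 5000 UMIs per cell and 0.0566 at 20000.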

How the results depend on the processing

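No paired analysis was possible between mutant and control because the groups share 1 replicate number. The Cdkn1a split used the library as a block; with no replicate block 0 members and 279 genes were called (276 higher, 3 lower), the edgeR adjusted p of Rrm2 was 0.758, and the G2 and mitosis genes named lost their calls. The number of genes called in mesenchyme between mutant and control (120) was 306 at 1 CPM, 57 by DESeq2, 0 with the prior of the ectoderm fit, 204 with the stricter cell filter and 33 with cells thinned to 10000 UMIs. DESeq2 called 16 ectoderm genes, 55 endothelium genes (1 member among them), 25 erythroid genes and 4 flank genes. With an infinite prior in these 4 classes edgeR called 746, 1002, 273 and 198 genes and 1, 2, 2 and 0 members. The mutant effect by class called 59 genes against ectoderm alone, 0 with the stricter filter and 10 with the stricter gate. The Cdkn1a split called 435 genes by DESeq2, 761 at 5000 UMIs, 1984 at 20000 UMIs and 746 with the prior of the ectoderm split. Its members called were 5 at 20000 UMIs and 3 with 2 or more Cdkn1a UMIs. At 5000 UMIs the ectoderm split called 41 genes and the split difference 223 genes and 0 members, and at 20000 UMIs it called 0 members. Mesenchyme without a Cdkn1a UMI gave 13 genes at 1 CPM, 5 by DESeq2 and 16 at 20000 UMIs.

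Leaving out 1 library gave, for members and for all genes, 18 to 25 and 4695 to 5425 in ectoderm against mesenchyme, 13 to 14 and 5727 to 6223 in endothelium, 28 to 30 and 7942 to 8112 in erythroid cells, 6 to 16 and 2303 to 3038 in flank, and 0 to 3 and 101 to 796 in the ectoderm split. The ectoderm split called 796 genes without mutant 2 and 200 without mutant 1. The members' summed level per mesenchyme cell in the mutants minus control 1 ranged from −325 to 69.6 CPM without 1 mutant, and cells with a Cdkn1a UMI minus cells without ranged from 28.7 to 324 CPM.

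Signs were followed only for the members named in each comparison. Of these, the log2 differences that changed sign were of members that had not passed, except in erythroid cells. Members outside these changed sign too. Without scaling factors 3 members lay above 0 in erythroid cells, against 28 with TMM factors, and 8 in endothelium, against 18. In flank, Mcm2 stood at 0.084 with the stricter gate and Mcm4 at −0.011 at 1 CPM. In the class comparison of the mutant effect, Mcm6 stood at 0.0039 against ectoderm alone, and Pcna at 0.26 there, 0.018 with RLE factors and 0.0013 with the stricter gate. In the Cdkn1a split with the stricter gate, Mcm4 stood at −0.016, Mcm6 at −0.021 and Pcna at −0.049. In the ectoderm split at 5000 UMIs, Fen1 stood at −0.11, Mcm4 at −0.13, Mcm5 at 0.12 and Mcm6 at −0.11, and at 20000 UMIs Mcm5 at 0.23 and Mcm6 at −0.049. There, leaving out 1 library gave −0.10 to 0.0031 for Mcm5 (0.0031 without control 1) and −0.056 to 0.15 for Mcm6 (−0.056 without mutant 1). In the split difference, Mcm5 stood at −0.24 and Pcna at 0.46 at 5000 UMIs, and Mcm5 at −0.056 and Pcna at 0.0070 at 20000. In endothelium against mesenchyme, Mcm5 stood at 0.00087 at 1 CPM and 0.0081 without mutant 2, and Mcm6 at −0.0053 without scaling factors. In erythroid cells without scaling factors, Mcm6 stood at −0.16, Dscc1 at −0.44, Gmnn at −0.42, Tyms at −0.30, Mcm2 at −0.60, Mcm4 at −0.98, Mcm5 at −0.79 and Pcna at −0.71. The cause of these changes was not tested. Of the other alternatives, 1077 for single genes and medians and 153 for counts and levels were labelled alike. Those labelled as moved were 34 for single genes and medians and 43 for counts and levels. Single genes lost a call in 22 and gained one in 14. For medians and levels, alike meant within the spread over libraries. With 2 mutants, the summed level per cell without 1 of them meets that rule whatever its value, so those labels show no stability. With 1 control library, a difference under the spread of the mutants cannot be seen.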
